A study of Mus musculus with 10 samples.

Results

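Prl2c2, Prl2c3 and Prl2c5 of the prolactin family and Stfa1, Stfa2, Stfa3 and Stfa2l1 of the stefin A family, 7 of the 57825 genes listed, were followed in CD8+ T cells that had been co-cultured with the mouse mammary carcinoma line 4T1 without (CD8+4T1, n = 5) or with sodium acetate (CD8+4T1+NaAc, n = 5). These 7 genes were selected by name for their difference between these same groups, so their group differences are given as a description and without a test. The T cells of both groups came from spleens of female Balb/c mice, were isolated with a magnetic bead kit, were activated on plate-bound anti-CD3 with IL-2 and anti-CD28 for 12 h and were co-cultured with 4T1 for 48 h. By the methods, the NaAc group was treated with 5 mM sodium acetate for 24 h between activation and co-culture. The labels read co-culture with acetate, and the methods do not say whether acetate stayed during the 48 h. What the CD8+4T1 group received in the 24 h step is not described. The labels give day 3 for all 10 samples, and the methods describe the RNA as that of purified CD8+ T cells. Neither the labels nor the methods say that the 5 samples of a group came from separate mice or cultures, so the p-values given for other genes measure only the spread between these samples.

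The Prl2c genes encode proliferins, secreted glycoprotein hormones of the prolactin family that are made mainly by the giant trophoblast cells of the placenta and were first found in growing fibroblast lines. Proliferins bind the cation-independent mannose 6-phosphate receptor, encoded by Igf2r, and promote the growth of blood vessels, whereas prolactin itself acts through Prlr, Jak2 and Stat5. Stefin A proteins are small cytosolic inhibitors of papain-like cysteine proteases such as cathepsins L, S, H and B. Mice carry a row of stefin A copies, which are known from neutrophils and stratified epithelium.

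The coding sequences of the GENCODE transcripts (GRCm38) show how far the copies could be told apart by a read. Prl2c3 and Prl2c2 differed at 3 of 672 coding bases (99.6% identity). Counted from the first base of the start codon and with the base of Prl2c3 first, the differences were C14T in exon 1, A200C in exon 2 and G319T in exon 4 of 5. Prl2c5 had 96.9% identity with Prl2c3 and 97% with Prl2c2. Each sequence below is a 60-base stretch of exon 4 that starts at coding base 317, read 5′ to 3′ on the coding strand. The stretch was chosen for the most differences from Prl2c3, first in Prl2c2 and then over both other copies. Capitals in Prl2c3 mark every base at which another copy differs, and capitals in the other copies mark bases that differ from Prl2c3. The stretches lie at chr13:12792114-12792173, minus strand (Prl2c3), chr13:12997407-12997466, minus strand (Prl2c2) and chr13:13190587-13190646, plus strand (Prl2c5), all within coding exons.
Prl2c3: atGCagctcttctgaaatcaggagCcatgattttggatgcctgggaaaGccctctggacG
Prl2c2: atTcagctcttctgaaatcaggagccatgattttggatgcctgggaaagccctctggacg
Prl2c5: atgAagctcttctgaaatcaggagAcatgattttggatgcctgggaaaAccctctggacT
A single base separated Prl2c3 from Prl2c2 in this stretch, and 4 bases separated Prl2c3 from Prl2c5. Of all 100-base windows of the Prl2c3 transcript, 37.7% occurred in no other gene's transcripts on either strand. The share was 33.6% for Prl2c2 and 91.3% for Prl2c5. At 150 bases it was 50.1%, 49.1% and 100% in the same order. Most 100-base stretches of Prl2c3 and of Prl2c2 thus occur in both genes, and the separate values of these 2 genes are uncertain. Their summed fragments do not depend on how shared fragments were divided between them, whereas the summed FPKM does to a degree, since the listed lengths differ (1360 bases for Prl2c3 and 1090 for Prl2c2). Both sums are too low if such fragments were dropped. The sources used here do not give how fragments that match more than 1 place were treated.

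The stefin A copies were less alike. Stfa3 had 80.9% coding identity with Stfa2, 81.6% with Stfa2l1 and 85.5% with Stfa1, and 100% of its 100-base windows occurred in no other gene's transcripts. Stfa2 and Stfa2l1 were the closest pair, with 11 differing bases of 309 (96.4% identity). The following 60-base stretches of the last of 3 exons show this, with capitals as above and Stfa3 as the sequence compared with. The stretch was chosen as the one where the copy most like Stfa3 differs from it at the most bases. It is therefore not typical of the whole coding sequence. They lie at chr16:36450674-36450733, minus strand (Stfa3), chr16:36285171-36285230, plus strand (Stfa1), chr16:36404092-36404151, minus strand (Stfa2) and chr16:36161748-36161807, plus strand (Stfa2l1).
Stfa3: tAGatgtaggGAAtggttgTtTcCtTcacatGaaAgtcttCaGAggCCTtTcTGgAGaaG
Stfa1: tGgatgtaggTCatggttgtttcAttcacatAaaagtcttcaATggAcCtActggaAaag
Stfa2: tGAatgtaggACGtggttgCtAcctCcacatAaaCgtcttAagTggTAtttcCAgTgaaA
Stfa2l1: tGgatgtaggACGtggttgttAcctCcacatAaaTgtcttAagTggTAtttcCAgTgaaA
Stfa3 differed from the other copies at 11 to 18 of these 60 bases. As 100% of its 100-base windows occurred in no other gene's transcripts, its fragments could be told from those of Stfa1, Stfa2 and Stfa2l1 within a read of that length.

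Levels are given as FPKM, the fragments scaled by the length of the gene and by the fragments of the sample, which allows genes to be compared per length. Multiplied by gene length, the deposited FPKM gave whole fragments, and the scaling referred to 16306449 to 17443397 fragments per CD8+4T1 sample and 16503704 to 18853728 per CD8+4T1+NaAc sample. The listed genes held 95.5% to 97.9% of these fragments in CD8+4T1 and 89.8% to 92.1% in CD8+4T1+NaAc. Replicate 1 stood apart in both groups, with the fewest genes above 0 (22291 in CD8+4T1 and 20233 in CD8+4T1+NaAc, against up to 25088 elsewhere). Cd8a was at 78.6 ± 2.34 FPKM (SD, n = 5) in CD8+4T1 and 76.5 ± 4.37 in CD8+4T1+NaAc, and the 12 T cell markers together ranged from 1095 to 1237 FPKM and from 880 to 1230 FPKM.

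Prl2c3, proliferin 2, was the most abundant member. It was at 1.23, 1.94, 0.947, 1.74 and 2.41 FPKM in CD8+4T1 replicates 1 to 5. In CD8+4T1+NaAc replicates 1 to 5 it was at 19.4, 38.3, 23.4, 25.6 and 15.3 FPKM. Every sample with acetate lay above every sample without, and the lowest with acetate was 6.35 times the highest without. The fragments behind these values were 21 to 54 per CD8+4T1 sample and 345 to 983 per CD8+4T1+NaAc sample. The pooled fragments per depth were 14.9-fold higher with acetate (exact 95% counting interval 12.9 to 17.4, which covers counting error only), and the difference of mean log2(FPKM + 0.1) was 3.80 ± 0.31 (SE). By mean FPKM Prl2c3 ranked 11269th of 29167 genes above 0 in CD8+4T1 and 2186th of 30171 in CD8+4T1+NaAc. The deposited table lists Prl2c3 (ENSMUSG00000056457) on chromosome 13 at 12805705 to 12814968, minus strand, in a build that the sources used here do not give.

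Prl2c2, the founding proliferin, followed the same order at a lower level. It was listed at 0, 0.894, 0.394, 1.34 and 1.39 FPKM in CD8+4T1 replicates 1 to 5 and at 10.3, 8.61, 8.51, 9.55 and 5.58 FPKM in CD8+4T1+NaAc replicates 1 to 5. The groups did not overlap, and the 5 samples with acetate lay within 1.85-fold of each other. The fragments pooled over each group were 73 without and 799 with acetate, which is 10.6-fold higher per depth (counting interval 8.35 to 13.7). Replicate 1 of CD8+4T1 had none of its 28 Prl2c fragments in Prl2c2 (0%, exact 95% interval up to 12.3%), whereas 25% to 38.1% of the Prl2c fragments of the other 4 CD8+4T1 samples were in Prl2c2. That sample at 0 lowers the CD8+4T1 mean on the log scale: the log2 difference of Prl2c2 was 3.73 with all samples, 2.98 without replicate 1 of both groups and 2.45 with a pseudocount of 1 FPKM in place of 0.1. Prl2c2 (ENSMUSG00000079092) is listed at 13170710 to 13179968 of chromosome 13, minus strand.

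Prl2c5 was barely detected. It had 0 fragments in all 5 CD8+4T1 samples, which allows up to 0.156 FPKM in the shallowest sample at 3 fragments. In CD8+4T1+NaAc replicates 1 to 5 it had 1, 11, 1, 5 and 3 fragments, or 0.0497, 0.496, 0.0515, 0.251 and 0.153 FPKM. Replicate 2 held 11 of the 21 fragments. Against a floor of 3 fragments over the CD8+4T1 group the pooled level was at least 6.79-fold higher, and without CD8+4T1+NaAc replicate 2 at least 4.14-fold higher. Prl2c5 (ENSMUSG00000055360) is listed at 13357300 to 13366508 of chromosome 13, plus strand.

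Summed over the 3 genes, the Prl2c level was 1.23, 2.83, 1.34, 3.08 and 3.80 FPKM in CD8+4T1 replicates 1 to 5 and 29.8, 47.4, 32.0, 35.4 and 21.0 FPKM in CD8+4T1+NaAc replicates 1 to 5. The mean Prl2c level was 2.46 ± 1.13 FPKM (SD, n = 5) without acetate and 33.1 ± 9.61 FPKM (SD, n = 5) with it, and the groups did not overlap. Replicates varied by a CV of 45.8% without and 29% with acetate. The pooled fold was 13.8 (counting interval 12.2 to 15.7), and with any single sample left out it stayed between 12.1 and 15.9. The log2 difference of the Prl2c summed FPKM was 3.78 with all samples and 3.60 without replicate 1 of both groups. Prl2c3 made up a median of 68.4% of the summed FPKM without acetate (56.6% to 100%) and 72.7% with acetate (65.3% to 80.8%). The shares of Prl2c3 and of Prl2c2 overlapped between the groups. That of Prl2c5 was 0% without and 0.161% to 1.04% with acetate. Gm7040, a pseudogene that shares 129 of the 100-base windows of Prl2c3 and was looked up after the windows were counted, had 0 fragments without and 2 with acetate.

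**Figure D1:**
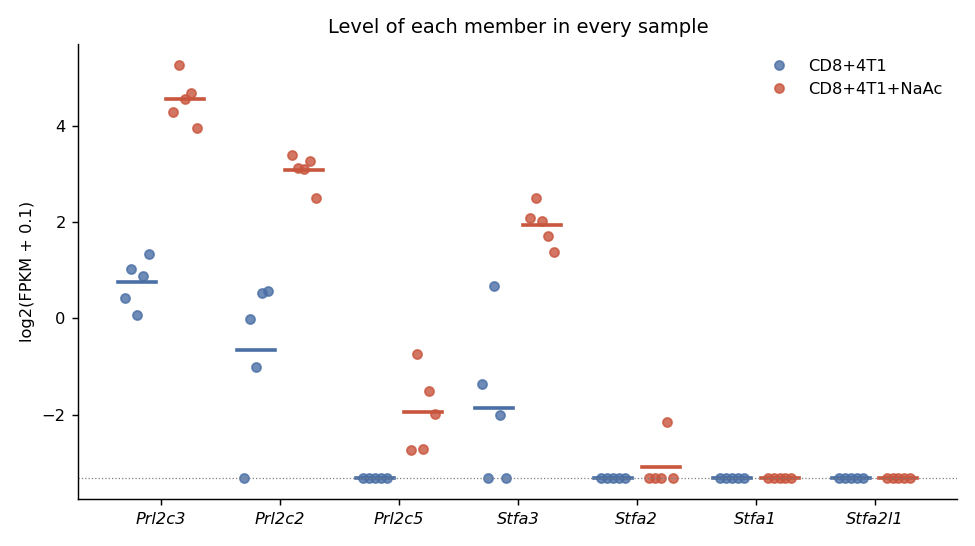
Each point is the level of a member in a sample, as log2(FPKM + 0.1), in the 5 CD8+4T1 samples (blue) and the 5 CD8+4T1+NaAc samples (red). Bars are group means, and the dotted line is a level of 0 FPKM. Prl2c3, Prl2c2 and Stfa3 do not overlap between the groups, Prl2c5 is above 0 in the 5 samples with acetate, and Stfa1 and Stfa2l1 lie at 0 throughout.

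Among the stefin A genes, Stfa3 alone was measurable. It was at 0.291, 0, 1.49, 0.147 and 0 FPKM in CD8+4T1 replicates 1 to 5, that is 2, 0, 10, 1 and 0 fragments. In CD8+4T1+NaAc replicates 1 to 5 it was at 4.12, 5.54, 3.97, 3.16 and 2.48 FPKM, that is 29, 43, 27, 22 and 17 fragments. Every sample with acetate was above every sample without, by a margin of 1.67-fold between the lowest with and the highest without. The pooled fold was 10.3 (counting interval 5.83 to 19.8). Replicate 3 held 10 of the 13 CD8+4T1 fragments, and without it the fold was 35.9 (counting interval 12 to 176). The difference of mean log2(FPKM + 0.1) of Stfa3 was 3.80 and depended on the pseudocount, with 1.87 at a pseudocount of 1 FPKM and 5.32 at 0.01 FPKM. It was 3.44 to 4.44 with 1 sample left out, the highest without replicate 3 of CD8+4T1, and 3.90 without replicate 1 of both groups. Stfa3 (ENSMUSG00000054905) is listed on chromosome 16 at 36270899 to 36275754, minus strand.

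The other stefin A genes gave no comparison. Stfa2 had 1 fragment in all, in CD8+4T1+NaAc replicate 4 (0.126 FPKM). Stfa1 and Stfa2l1 were listed at 0 in all 10 samples, where 3 fragments in a sample would be 0.224 to 0.259 FPKM for Stfa1 and 0.38 to 0.439 FPKM for Stfa2l1. The summed Stfa level of 2.48 to 5.54 FPKM with acetate and 0 to 1.49 FPKM without was therefore the level of Stfa3, and a change of the stefin A cluster as a whole was not measured. Over both families, 5 of the 7 genes had a fragment in any sample, and 3 passed the filter of a mean of at least 0.5 FPKM that was used for tests of other genes. Stfa3 passed it only through the samples with acetate. In 4 of the 7 members (Prl2c3, Prl2c2, Prl2c5 and Stfa3) the groups did not overlap, all with the higher level in CD8+4T1+NaAc, and Prl2c5 had 3 fragments or fewer in 3 of the 5 samples with acetate. Of the 32272 genes above 0 in any sample, 7.93% did not overlap and were higher with acetate, and 6.77% did not overlap and were lower. In the whole table, limma called 17.6% of 15710 genes higher and 19.0% lower in CD8+4T1+NaAc at an adjusted p under 0.05, and since the members were chosen on this contrast nothing is read from their count.

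**Figure D2:**
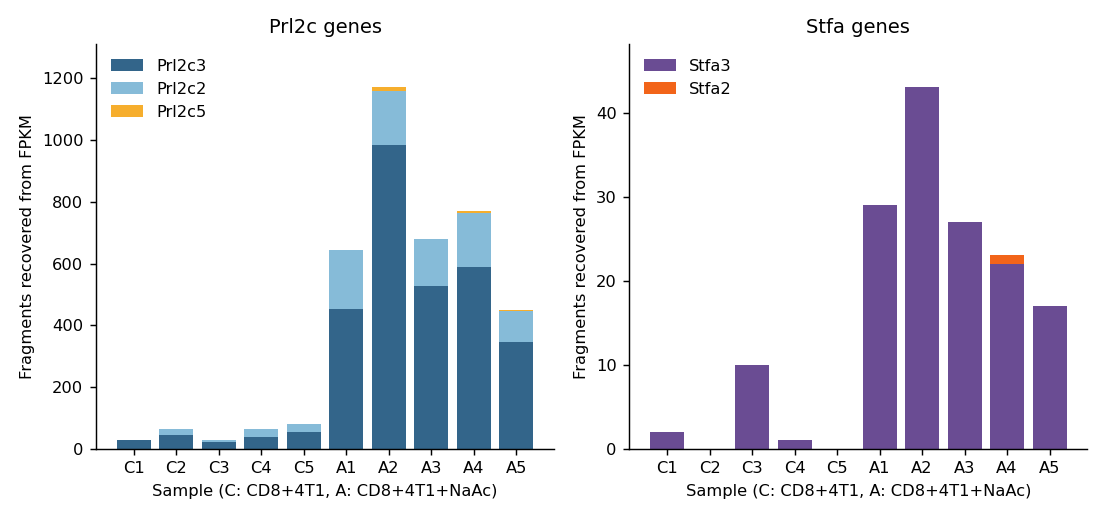
Bars give the fragments per sample, recovered from FPKM, for the Prl2c genes (left) and the Stfa genes (right), stacked by gene on linear axes that start at 0. The CD8+4T1 samples are C1 to C5 and the CD8+4T1+NaAc samples A1 to A5. Prl2c sums run from 28 to 79 without and from 449 to 1171 with acetate, and C3 holds 10 of the 13 Stfa3 fragments without acetate.

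Because Prl2c3 and Stfa3 were both higher with acetate, the promoters were read from RefSeq (GRCm38.p6), which held 6 of the 7 genes. No entry was found for Prl2c2. The windows run from 250 bases before to 50 after the annotated start. The Prl2c3 and Prl2c5 windows had 96% identity, with 12 differing bases and 2 gaps, at mean levels of 24.4 and 0.2 FPKM with acetate. They lie at chr13:12800030-12800329, minus strand, and chr13:13182466-13182765, plus strand. Capitals mark the bases that differ between the 2, with those opposite a gap.
Prl2c3: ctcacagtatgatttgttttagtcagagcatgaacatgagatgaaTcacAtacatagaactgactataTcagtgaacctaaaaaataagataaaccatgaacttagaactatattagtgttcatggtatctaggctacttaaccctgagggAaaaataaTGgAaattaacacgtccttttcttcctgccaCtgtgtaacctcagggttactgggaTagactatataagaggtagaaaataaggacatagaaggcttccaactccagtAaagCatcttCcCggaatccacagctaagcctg
Prl2c5: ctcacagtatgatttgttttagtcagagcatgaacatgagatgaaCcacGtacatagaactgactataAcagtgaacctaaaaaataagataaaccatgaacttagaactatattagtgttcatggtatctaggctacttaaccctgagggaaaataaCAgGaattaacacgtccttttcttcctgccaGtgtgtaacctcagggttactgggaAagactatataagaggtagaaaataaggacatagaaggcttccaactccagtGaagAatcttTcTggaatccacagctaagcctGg
The Stfa3 and Stfa2 windows had 82.5% identity, with 52 differing bases and 6 gaps. They lie at chr16:36455343-36455642, minus strand, and chr16:36408314-36408613, minus strand, and capitals mark their differences in the same way.
Stfa3: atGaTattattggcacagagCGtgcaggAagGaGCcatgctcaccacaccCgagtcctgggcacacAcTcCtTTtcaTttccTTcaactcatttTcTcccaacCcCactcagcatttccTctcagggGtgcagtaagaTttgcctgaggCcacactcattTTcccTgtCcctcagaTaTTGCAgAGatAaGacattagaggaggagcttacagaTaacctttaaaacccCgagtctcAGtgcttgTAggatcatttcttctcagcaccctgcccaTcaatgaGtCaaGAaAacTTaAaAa
Stfa2: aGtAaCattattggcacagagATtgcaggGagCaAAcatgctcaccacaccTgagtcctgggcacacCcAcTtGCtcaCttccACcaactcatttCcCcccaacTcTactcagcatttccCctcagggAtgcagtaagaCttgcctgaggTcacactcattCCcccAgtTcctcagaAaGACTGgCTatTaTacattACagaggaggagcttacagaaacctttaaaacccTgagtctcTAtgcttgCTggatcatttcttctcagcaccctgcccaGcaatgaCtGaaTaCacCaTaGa
Between families, Prl2c3 and Stfa3 shared 52.8% of aligned bases. Of 3 motifs searched on both strands in the 6 windows, TATAAA had no match. TTCNNNGAA, the letters of a STAT site, matched Prl2c3 only, 25 bases after the start, and 8.29% of 32817 promoters hold it. TGACTCA, the letters of an AP-1 site, matched Stfa3 only, on the reverse strand 29 bases after the start, and 5.21% of promoters hold it. These are matches of letters and not sites shown to be bound.

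The rest of the prolactin family was nearly silent. The list held 24 other family genes in the table, of which 12 were at 0 in every sample and 1 was tested. It was called higher, beside the 17.6% of all tested genes so called. Prl2a1, another placental member of the family, was at 0, 0.0649, 0.208, 0.206 and 0.274 FPKM without and at 1.39, 3.24, 1.37, 1.81 and 1.09 FPKM with acetate. The groups did not overlap, and the log2 difference was 2.96 ± 0.43 (SE, limma, adjusted p = 0.000404), from 11 fragments in all without and 138 with acetate. Prl2a1 passed the filter only through the samples with acetate. It was also called with no filter (adjusted p = 0.000666), and its log2 difference ran from 1.23 to 4.05 over the alternatives. Gh, growth hormone, reached 0.489 FPKM at most and Prl8a9, a placental family member, 0.386 FPKM, and both overlapped between the groups. Prl itself and Prl2c1 were at 0 in all samples.

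Of 14 genes for receptors and signaling of the family, 12 were tested, 1 was higher and 1 was lower. Igf2r, the proliferin receptor, was at 63.0 ± 3.50 FPKM without and 59.6 ± 4.12 FPKM with acetate (SD, n = 5 each), a log2 difference of -0.08 ± 0.06 (SE) that missed the threshold (limma, adjusted p = 0.327). Prlr, the prolactin receptor, had 2 fragments in each group. Jak2 (65.4 and 64.4 FPKM) and Stat5a (61.0 and 66.5 FPKM), the kinase and transcription factor of prolactin signaling, did not pass the test either, though Stat5a was called higher when all samples were rescaled to the same total (adjusted p = 0.00431) and without replicate 1 of both groups (0.0486). After that rescaling 3 genes of the list were higher and 0 lower. Socs3, a feedback inhibitor of cytokine signaling, rose and did not overlap, at 9.65 to 17.0 FPKM without and 17.9 to 32.8 FPKM with acetate (log2 difference 1.13 ± 0.19 SE, limma, adjusted p = 0.0011). Grb2, an adapter of receptor tyrosine kinases, was lower by a log2 difference of -0.44 ± 0.14 (SE, limma, adjusted p = 0.0305) with overlapping groups. The call was lost with no filter, when all samples were rescaled to the same total, and without replicate 1, 3, 4 or 5 of CD8+4T1 or replicate 2, 3, 4 or 5 of CD8+4T1+NaAc (adjusted p up to 0.187). Replicate 1 of CD8+4T1+NaAc, at 102 FPKM, stood above the other 4, and without it the log2 difference was -0.60 (adjusted p = 2.82e-05). Ghr, the growth hormone receptor, did not pass the filter and was picked after its values were seen. It was at 0.0793 to 0.121 FPKM without and 0.42 to 1.05 FPKM with acetate. The list's median log2 difference was -0.09, and that of all genes tested was -0.02.

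Cysteine proteases, among them the targets of stefin A, were measured more deeply. All 11 genes of the list of cysteine cathepsins and legumain were tested, 4 were higher and 1 was lower. Ctsl, cathepsin L, was at 8.51, 8.58, 8.5, 10.1 and 10.2 FPKM without and at 26.0, 46.9, 32.6, 36.8 and 24.6 FPKM with acetate. The log2 difference was 1.82 ± 0.16 (SE, limma, adjusted p = 3.04e-05). Lgmn, the asparaginyl protease legumain, was at 2.37 to 3.81 FPKM without and 9.20 to 12.7 FPKM with acetate (log2 difference 1.67 ± 0.13 SE, limma, adjusted p = 1.66e-05). Ctsb, cathepsin B, was at 25.2 ± 2.37 FPKM without and at 35.9 ± 3.17 FPKM with acetate (SD, n = 5 each, log2 difference 0.51 ± 0.08 SE, limma, adjusted p = 0.000639). For Ctsl, Lgmn and Ctsb every sample with acetate lay above every sample without. Ctsh, the aminopeptidase cathepsin H, was low (0.121 to 0.418 and 0.286 to 1.3 FPKM) and was called with overlapping groups (limma, adjusted p = 0.0254), a call lost without replicate 2 (limma, adjusted p = 0.0538) or replicate 5 (0.0541) of CD8+4T1. It passed the filter only through the samples with acetate, and without replicate 2, 3 or 4 of CD8+4T1+NaAc it was not tested. Ctsc, which activates granzymes, was lower by a log2 difference of -0.30 ± 0.09 (SE, limma, adjusted p = 0.026), and this call was lost with no filter, after rescaling to the same total, and without replicate 2, 3, 4 or 5 of CD8+4T1 or replicate 2 or 4 of CD8+4T1+NaAc (adjusted p up to 0.256). Ctsz and Ctsw, with Ctsb among the 3 of highest mean, did not pass (limma, adjusted p = 0.152 and 0.937). Ctss, cathepsin S, was at 32.2 FPKM without and 27.3 FPKM with acetate and did not pass (log2 difference -0.25 ± 0.11 SE, limma, adjusted p = 0.107). The list's median log2 difference was 0.03.

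The other inhibitors that were called were lower with acetate. Of 15 cystatins listed, 3 were tested and 2 were lower. Cstb, the cytosolic stefin B, fell, with 121 ± 13.1 FPKM without and 90.3 ± 5.35 FPKM with acetate (SD, n = 5 each, log2 difference -0.42 ± 0.08 SE, limma, adjusted p = 0.00178). Cst7, the lysosomal cystatin F of cytotoxic cells, fell likewise, with 135 ± 11.6 FPKM without and 107 ± 14.4 FPKM with acetate (SD, n = 5 each, limma, adjusted p = 0.0247). When all samples were rescaled to the same total, Cst7 was not called (adjusted p = 0.199) and Cstb was (0.0193). Cst7 was also not called without replicate 3 (adjusted p = 0.0615) or replicate 4 (0.057) of CD8+4T1. Cst3, the secreted cystatin C and the most abundant of the list at 306 ± 39.9 and 264 ± 17.4 FPKM (SD, n = 5 each), did not pass (limma, adjusted p = 0.0928), though it did without replicate 1 of CD8+4T1 (adjusted p = 0.0472). Of the 6 other stefin A-like genes listed, Csta3 alone was tested and did not pass (0 to 1.42 and 0 to 2.27 FPKM, limma, adjusted p = 0.979), and 0 of 1 was called by limma, by voom on the recovered fragments or at an unadjusted p under 0.05. Cstdc4, which did not pass the filter, was at 0.616 to 0.823 FPKM without and 0 to 0.317 FPKM with acetate, a direction opposite to that of Stfa3 and without overlap of the groups. Cstdc5 reached 0.336 FPKM.

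**Figure D3:**
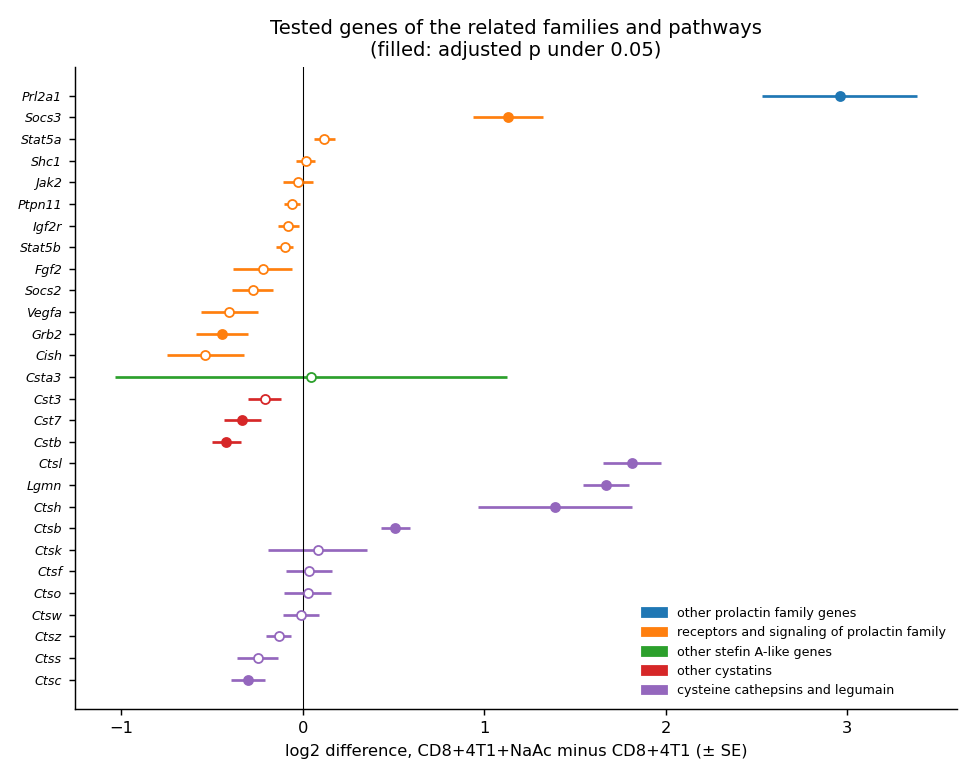
Each row is a tested gene of the prolactin, receptor, stefin A-like, cystatin or cathepsin lists, with its log2 difference between CD8+4T1+NaAc and CD8+4T1 and its SE (limma on log2(FPKM + 0.1), n = 5 each). Filled circles have an adjusted p under 0.05. Prl2a1, Ctsl, Lgmn, Ctsh and Socs3 lie above 1, and Cstb and Cst7 lie below 0.

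Genes within 500000 bases of the members were compared to see whether the regions moved as a whole. Around the Prl2c genes 12 of 49 listed neighbours were tested, of which 5 were higher and 1 was lower. Gpr137b, a lysosomal membrane protein, was at 0.526 ± 0.155 and 2.39 ± 0.655 FPKM (SD, n = 5 each, log2 difference 2.00 ± 0.24 SE, limma, adjusted p = 0.000145). Ero1b, a disulfide oxidase of the endoplasmic reticulum, Nid1, a basement membrane protein, and Lyst, a lysosomal trafficking regulator, were higher by log2 differences of 0.53, 0.38 and 0.49. Gm2423 was lower (log2 difference -0.85 ± 0.11 SE, limma, adjusted p = 0.000204). The other 6 tested neighbours did not pass. Around the Stfa genes 15 of 67 neighbours were tested and 6 were lower. Ccdc58 (log2 difference -0.90 ± 0.10 SE) and Fam162a (-0.78 ± 0.07 SE), both mitochondrial proteins, were the lowest, followed by Dtx3l, Parp9 and Parp14, which act in ADP-ribosylation and the interferon response, and Hcls1, a blood cell adapter, at -0.57, -0.47, -0.39 and -0.33. The tested neighbours of the Stfa genes that were called thus lay opposite in direction to Stfa3. Of all tested genes 17.6% were called higher and 19.0% lower, and nothing is read from the neighbour counts about the regions as a whole.

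**Figure D4:**
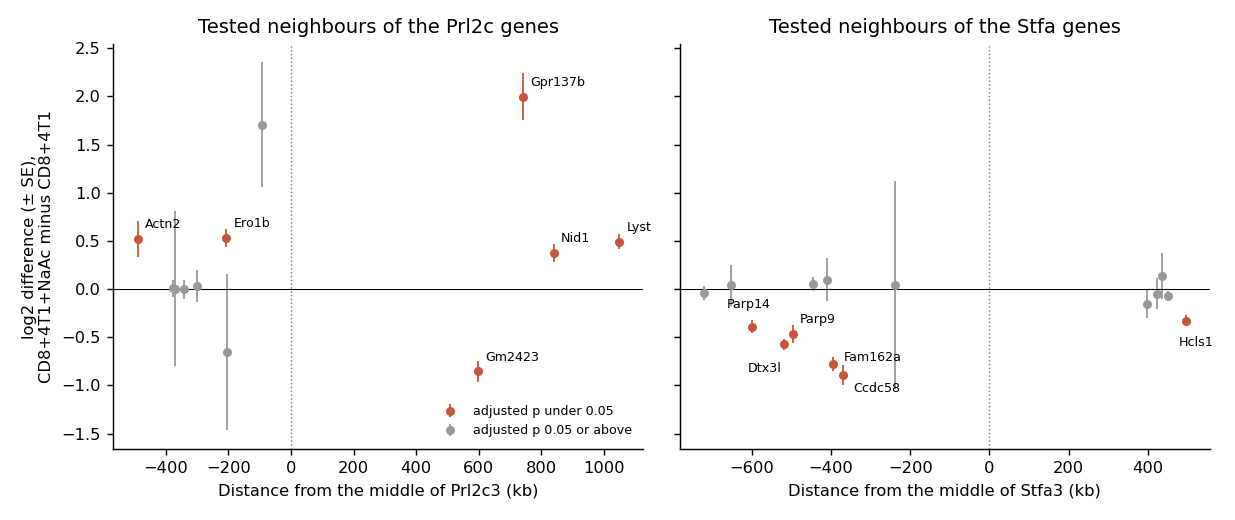
Points are the tested neighbours within 500000 bases of the outermost Prl2c genes (left) and Stfa genes (right), by the distance in kb of their middle from that of Prl2c3 or Stfa3. The vertical axis is the log2 difference between CD8+4T1+NaAc and CD8+4T1 with its SE (n = 5 each), and red marks an adjusted p under 0.05 (limma). The 6 called neighbours of the Stfa genes are all below 0, and 5 of the 6 of the Prl2c genes are above 0.

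Markers of other cells also differed between the groups. Of 20 markers of 4T1 and epithelial cells, 11 were tested and 8 were higher, and their summed level was 71.0 to 87.5 FPKM without and 135 to 253 FPKM with acetate. Without acetate most of this sum was Cd24a (means of 43.6 without and 49.9 FPKM with acetate) and Spint2 (20.7 and 19.2 FPKM). The sum thus rose by a smaller factor than Krt8, Krt18 or Lcn2, and the r of the list given below uses the same sum. Krt8, a keratin of simple epithelium, was at 1.77, 2.78, 2.16, 4.74 and 5.66 FPKM without and at 26.4, 53.5, 30.7, 40.3 and 20 FPKM with acetate (log2 difference 3.33 ± 0.35 SE, limma, adjusted p = 8.1e-05). Replicates 2 and 5 of CD8+4T1+NaAc were the highest and the lowest for Krt8, as for Prl2c3 and Stfa3. Relative to Krt8, the Prl2c sum was 0.62 to 1.02 without and 0.878 to 1.13 with acetate, with medians of 0.670 and 1.04. The overlap of this ratio rested on replicate 2 of CD8+4T1 (1.02), the other 4 samples of that group being at 0.62 to 0.695, below every sample with acetate. For Stfa3 the ratio was 0 to 0.689 without and 0.0784 to 0.156 with acetate, with medians of 0.0311 and 0.124. The ratio of group sums was 0.113 in both groups for Stfa3, and 0.717 without and 0.969 with acetate for the Prl2c sum. The Stfa3 values without acetate rest on 13 fragments, 10 of them in replicate 3. Lcn2 and Krt18 had log2 differences of 3.28 and 2.89 and Krt7 and Wnt7b of 3.03 and 2.94 (limma, adjusted p from 5.33e-05 to 0.000331), while Cd24a (0.20) was called and Spint2 (-0.11) was not. Krt5 had 1 fragment over all samples, and Krt19 had 9 without and 3 with acetate. In bulk RNA, more cells of a type and more RNA per cell cannot be told apart. As a description over the 10 samples, which share library and depth across genes, deviations of log2(FPKM + 0.1) from the group means had Pearson r = 0.685 between the Prl2c sum and the marker list and 0.877 between Prl2c3 and Krt8. For the Stfa sum and the list r was 0.0491, and for Stfa3 and Krt8 it was -0.345. Both values include CD8+4T1 samples with 0 to 10 Stfa fragments, where the pseudocount sets much of the spread. With the other marker lists, described below, the r of the Prl2c sum ran from -0.0335 (T cell) to 0.644 (neutrophil). The placental trophoblast list gave 0.526. The neutrophil sum with acetate was mostly Mmp9 (13.9 ± 4.45 FPKM, SD, n = 5), with Csf3r and Cxcr2 near 0. These r values do not show which cells the Prl2c RNA came from. The part of 4T1 RNA in the level of the Prl2c genes and Stfa3 was not tested.

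Few markers of the tissues in which proliferins and stefin A are known passed the filter. The neutrophil markers that were tested were higher and the keratinocyte markers lower. The trophoblast list had 1 tested gene, so no direction is read for that list. Of 11 placental trophoblast markers, Psg17 was tested and was higher (log2 difference 2.36 ± 0.39 SE, limma, adjusted p = 0.000811). Psg17 passed the filter only through the samples with acetate and was not tested without replicate 2 of CD8+4T1+NaAc. Plac1 was at 0 to 0.0411 FPKM without and 0.129 to 0.755 FPKM with acetate, Cdx2 reached 0.388 FPKM, and the defining markers Gcm1, Tpbpa and Hand1 had at most 1 fragment each. Ascl2, which did not pass the filter and was picked after its values were seen, had 12 fragments without and 1 with acetate, with overlapping groups. The summed level was 0.279 to 0.607 and 1.39 to 2.74 FPKM. Of 17 neutrophil markers, 3 were tested and all 3 were higher, Mmp9 (log2 difference 3.13 ± 0.19 SE), S100a8 (2.86 ± 0.53 SE) and Il1r2 (0.59 ± 0.14 SE). The sum of the list was 4.27 to 5.44 FPKM without and 15 to 30.0 FPKM with acetate, while S100a9 and Retnlg were at 0 throughout and Csf3r and Cxcr2, the receptors that define neutrophils, reached 0.0501 and 0.0604 FPKM. Of 15 keratinocyte cornification markers, 9 were at 0, and the 4 tested (Krt10, Krt16, Krt17 and Tgm1) were lower, with log2 differences of -1.38 to -0.78. Their list summed to 7.06 to 8.52 FPKM without and 3.80 to 5.34 FPKM with acetate.

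Of 18 macrophage and dendritic markers, 6 were tested and 3 were higher, with sums of 37.8 to 47.9 and 47.3 to 54.7 FPKM. Cd74 (log2 difference 1) and H2-Aa (2.24) were higher without overlap of the groups, Lyz2 (0.96) was called with overlapping groups and lost the call with no filter and without replicate 2, 3, 4 or 5 of CD8+4T1 or replicate 3 or 4 of CD8+4T1+NaAc, Cd68 and Cd14 did not pass, and C1qb and Siglech were at 0. Of 12 fibroblast markers, 4 were tested and 2 were higher, Sparc (log2 difference 2.76) and Pdgfra (2.32), while Thy1, which T cells also express, did not pass and Col3a1 and Postn were at 0. Their sum, 184 to 221 FPKM over both groups, was almost all Thy1. Without Thy1, a sum taken after its values were seen, the other 11 were at 1.41 to 2.28 FPKM without and 4.56 to 8.64 FPKM with acetate, with no overlap. Of the 12 T cell markers, all tested, 1 was higher (Zap70, named after its value was seen, and not called without replicate 2 of CD8+4T1 or replicate 3, 4 or 5 of CD8+4T1+NaAc) and 5 were lower, the latter being Cd3d, Cd3g, Cd3e, Lck and Cd2 with log2 differences of -0.54 to -0.29, while Trbc2 and Cd8b1 did not pass. Cd8b1, a chain of the CD8 coreceptor, had a log2 difference of 0.17 (limma, adjusted p = 0.237) and was called higher after rescaling to the same total (adjusted p = 0.0143), without replicate 1 of CD8+4T1+NaAc (0.00312) and without replicate 1 of both groups (0.0058). The call of Cd2 was lost in 11 settings, among them without replicate 2, 3, 4 or 5 of either group. Rescaled to the same total, 4 were higher and 4 were lower. Krt7, Wnt7b, S100a8, H2-Aa, Sparc and Pdgfra passed the filter only through the samples with acetate. The part of these cells in the level of the members was not tested.

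**Figure D5:**
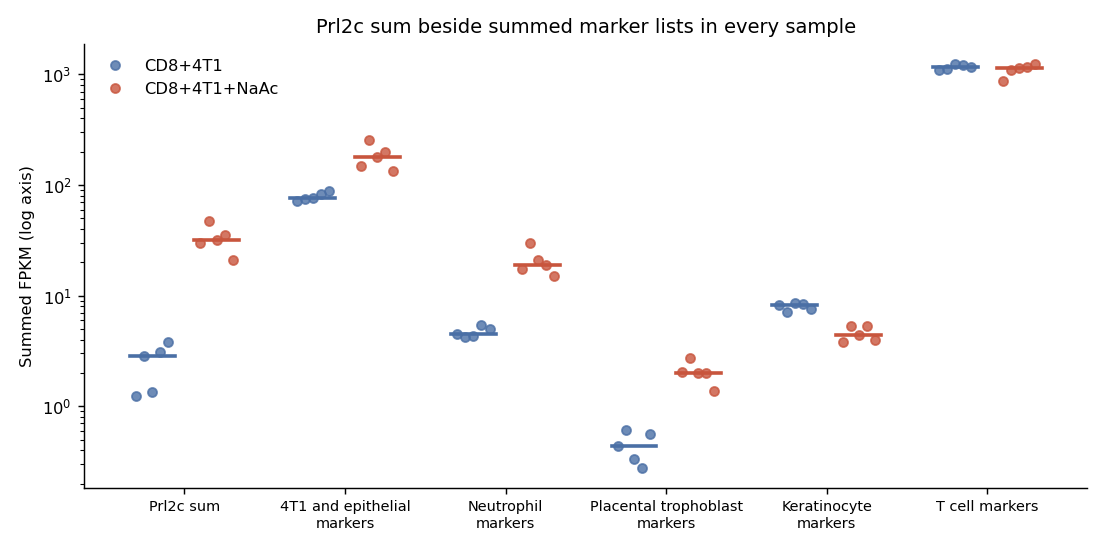
The summed FPKM of the Prl2c genes and of 5 marker lists in each sample is shown on a log axis, for CD8+4T1 (blue) and CD8+4T1+NaAc (red), with group medians as bars. The Prl2c sum (1.23 to 3.80 and 21.0 to 47.4), the 4T1 and epithelial, neutrophil and placental lists do not overlap and are higher with acetate, the keratinocyte list is lower, and the T cell list overlaps. Without acetate the 4T1 and epithelial sum is mostly Cd24a and Spint2.

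The genes whose sample-to-sample pattern was most like that of the members were found from the deviations of log2(FPKM + 0.1) from the group means over the 10 samples, among the 10624 protein-coding genes that averaged 1 FPKM or more. For the Prl2c sum these were Cxcl5 (Pearson r = 0.968), Cp (0.959), Zbtb39 (0.956), C3 (0.951) and Ccdc136 (0.946), against a median of 0.0184 over all genes compared. Cxcl5, a chemokine for neutrophils, was at 4.45 ± 1.46 and 42.9 ± 13.1 FPKM, C3, a complement protein, at 3.52 ± 1.23 and 30.5 ± 9.72 FPKM and Cp, the copper carrier ceruloplasmin, at 0.314 ± 0.127 and 2.90 ± 0.848 FPKM (SD, n = 5 each). Ccdc136 was at 1.05 ± 0.373 and 4.83 ± 1.16 FPKM. These 4 genes were higher with acetate (limma, adjusted p from 2.63e-05 to 7.95e-05). Cp passed the filter only through the samples with acetate and was also called with no filter (adjusted p = 8.84e-05), whereas Zbtb39 was at 2.92 and 2.52 FPKM and did not pass (adjusted p = 0.0882). For the Stfa sum the genes were Ltk (r = 0.942), Atp23 (0.914), Tafazzin (0.885), Ccdc130 (0.834) and Upk1a (0.825), against a median of -0.00395. Of these Ltk, a receptor tyrosine kinase (1.04 and 2.57 FPKM), and Tafazzin, the enzyme that remodels cardiolipin (6.37 and 7.78 FPKM), passed the test and the other 3 did not. The samples share library and depth across genes, so these values describe likeness in these 10 libraries. Those of the Stfa sum include CD8+4T1 samples with 0 to 10 fragments, where the pseudocount sets much of the spread. No gene was named for both families. In CD8+4T1+NaAc, Prl2c3 and Stfa3 were both highest in replicate 2 and lowest in replicate 5. Over all 10 samples the deviations of Prl2c3 and Stfa3 from their group means had r = -0.519 and those of the Prl2c and Stfa sums r = -0.566, again with the CD8+4T1 samples of 0 to 10 Stfa fragments.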

How the data were processed

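RNA of 10 samples, 5 per group, was sequenced. Per the submitters' processing notes, the authors used fastp, HISAT2 2.0.5, StringTie 1.3.3b and featureCounts 1.5.0-p3. The genome build, annotation, strand setting and treatment of multiply matching fragments are not given in the sources used here. The authors deposited FPKM values per gene with gene positions and lengths, the latter being the other measure used. FPKM times length was a whole multiple of 1 step per sample, within 0.1, which gave the fragments.

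The 15710 genes that averaged 0.5 FPKM or more entered a fit of log2(FPKM + 0.1) by limma (version 3.58.1, under R 4.3.3), with variance trend and robust moderation, two-sided, with Benjamini-Hochberg adjusted p under 0.05 as a call. The fit was tested on simulated data. Members and lists were chosen with earlier results of these data known, so the members were given without a test. Named genes were the members, in each list the 3 highest by mean FPKM and up to 5 called genes of largest log2 difference, called neighbours that averaged 1 FPKM or more, and the 5 genes most alike each family sum. Defining markers at or near 0, Igf2r, Prlr, Ctss and the genes of untested lists were named beside these. Coding sequences came from GENCODE (GRCm38), and promoters from RefSeq. The protein identity planned was not computed, and coding identity was used instead. Alternatives were other pseudocounts, no filter, 2 other scalings, a replicate block, voom on the fragments and leaving out samples. The result of 1 marker gene is not reported here.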

Additional observations from a re-analysis of the deposited data

Results flagged for a closer look

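On the log2(FPKM + 0.1) scale, and for the members and family sums also on the FPKM scale, which was added after seeing the data, each group of 5 was checked. The highest or lowest sample was called set apart when its gap to the nearest other sample was over 0.71 of the group's range. This held for 16 of 198 checks, where chance gives about 1 in 20 (9.9). Among the members, replicate 3 of CD8+4T1 was the highest for Stfa3, and so for the Stfa sum, on the FPKM scale only (1.49 FPKM, gap 0.805 of the range). Replicate 4 of CD8+4T1+NaAc was the only sample above 0 for Stfa2 (0.126 FPKM, gap 1.0 on both scales), which was 1 fragment. In CD8+4T1+NaAc, replicate 1 was the lowest for Cst7 (82.3 FPKM, gap 0.793 of the range), Trbc2 (177 FPKM, 0.814), Cd8b1 (125 FPKM, 0.714) and Cd3d (46.0 FPKM, 0.721), and the highest for Grb2 (102 FPKM, 0.823) and Cd3g (66.1 FPKM, 0.747). In CD8+4T1, replicate 1 was the lowest for Ctsc (8.35 FPKM, 0.781), H2-Aa (0.0158 FPKM, 0.828) and Cd3d (68.9 FPKM, 0.718). Replicate 5 of CD8+4T1+NaAc was the lowest for Tafazzin (7.16 FPKM, 0.719), and replicate 3 of CD8+4T1 for Gpr137b (0.268 FPKM, 0.733). Replicate 2 of CD8+4T1 was the only sample of its group above 0 for Plac1 (0.0411 FPKM, gap 1.0 of the range), which was 1 fragment.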

How the results depend on the processing

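Prl2c3, Prl2c2, Stfa3 and both family sums were higher with acetate under all alternatives run. The log2 difference of the Prl2c summed FPKM was 3.78, was 3.32 to 3.95 under other pseudocounts and scalings, and was 3.58 to 3.96 with a sample left out. That of the Stfa summed FPKM was 3.81, moved to 1.88 with a pseudocount of 1 FPKM and to 5.33 with 0.01 FPKM, by the construction of the scale for a group near 0, and was 3.45 to 4.45 with a sample left out. The pseudocount of 1 FPKM moved Prl2c3 to 3.22, Prl2c2 to 2.45 and Stfa3 to 1.87. The calls over all genes were 5742, of which 48.1% were higher, and 78.0% of calls were higher when every sample was rescaled to the same total, which moved the median of all genes by 0.17 on the log2 scale. With samples left out they numbered 4924 to 6979. Of the lists, cystatins had 2 calls, 1 after rescaling and 1 to 3 with samples left out. Receptors and signaling had 2, with 1 to 5, cathepsins 5, with 3 to 6, marker lists 28, with 24 to 31, and neighbours 12, with 11 to 12. Stefin A-like genes had 0, and 1 (Cstdc4, lower) with no filter, where more genes were tested. Apart from the scale and the filter, the cause was not tested. For single genes, 52 values lost and 15 gained a call (in Atp23, Cd68, Cd8b1, Cst3, Ctsz, Spint2, Stat5a and Thy1), and 0 called values turned direction. Of values called in neither fit, 24 had the opposite sign, in 9 genes near 0 such as Csta3 and Jak2. The alternatives for marker lists, for marker genes, for genes most alike and for pooled folds were chosen after seeing the data. A fit with the replicate number as a block gave 5399 calls and also called Cst3 (adjusted p = 0.0467). Same-numbered samples had correlations of deviations of -0.028 to 0.069, and 2 of 5 CD8+4T1 samples correlated best with their own number, so the numbers were not taken to pair the samples. Depth limits Prl2c5, Stfa1, Stfa2 and Stfa2l1, which were at or near the level of 3 fragments.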
